A study of Mus musculus with 26 samples.

Results

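The unfolded protein response was described through 10 of its genes, taken by symbol from the 24450 mouse features of the deposited count table. They were the sensors Ern1, Eif2ak3 and Atf6, the transcription factors Xbp1, Atf4 and Ddit3, and the downstream genes Ppp1r15a, Herpud1, Calr and Pdia3. All 10 symbols were found in the table. Of these, 9 passed the filter on low counts and were tested, and Herpud1 did not.

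The material was polyadenylated RNA from fully grown germinal vesicle (GV) oocytes, with a pool of 10 oocytes in each library. The groups were 6 libraries of Tet3 LCDf/f oocytes without Cre (WT), 7 of Tet3 LCDf/f; Zp3-Cre (LCD KO, which lacks a low-complexity domain of Tet3) and 5 of Tet3 LCD HD Mutf/f; Zp3-Cre (HD mutant, with HD not spelled out in the labels). There were also 2 libraries each of Dnmt3af/f; Zp3-Cre (Dnmt3a KO), of Dnmt3af/f, Tet3 LCDf/f; Zp3-Cre (DKO), of Tet3f/f; Zp3-Cre (Tet3 KO) and of Tet1, 2, 3f/f; Zp3-Cre (TKO). Zp3-Cre acts in growing oocytes, so the deletions are oocyte alleles. WT carried the floxed domain but no Cre, so in a comparison with WT the allele and the Cre cannot be told apart. The labels call the replicates biological and put them in 3 batches. Batch 1 held WT 1 to 3 and LCD KO 1 to 3, while the second batch was made of HD mutant 1 to 3, LCD KO 4 and 5 and a single WT library, number 4. Batch 3 held WT 5 and 6, LCD KO 6 and 7 and both libraries of Dnmt3a KO, DKO and Tet3 KO.

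The endoplasmic reticulum (ER) folds secreted and membrane proteins, and unfolded protein there is sensed by IRE1 (Ern1), PERK (Eif2ak3) and ATF6. IRE1 cuts a short stretch out of the Xbp1 mRNA, so that the factor XBP1s is made. PERK phosphorylates the initiation factor eIF2alpha, which slows protein synthesis but favours translation of Atf4, whose product turns on Ddit3 (CHOP), and ATF6 is cleaved in the Golgi to release a factor that turns on chaperone genes. A growing oocyte secretes its zona pellucida proteins through the same organelle. Much of the response acts through splicing, cleavage and phosphorylation, none of which a count per gene records.

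Total counts ran from 1838824 to 7833087 per library, over 24 distinct libraries. The columns of the 2 TKO libraries were identical to those of the 2 Tet3 KO libraries and were counted once. In the libraries labelled Tet3 KO, Tet3 stood at 309 ± 67.2 CPM (SD, n = 2) against 248 ± 95.3 (n = 6) in WT, while Dnmt3a stood at 123 ± 26.8 against 338 ± 143, close to the 119 ± 18.0 (n = 2) of Dnmt3a KO. Their Dnmt3a log2 fold change against WT was -1.48 ± 0.20 (SE, adjusted p = 4.09e-05), which goes against the label, and a count per gene does not show whether part of Tet3 was deleted. They are called "labelled Tet3 KO" below, and no direction drawn from them is assigned to Tet3. CPM is a gene's count relative to the library total, after that total was scaled by a trimmed mean of M-values (TMM) factor. The log2 fold change of Tet3 against WT was -1.78 ± 0.21 for LCD KO (adjusted p = 6.32e-06), -1.86 ± 0.33 for HD mutant (adjusted p = 0.00149) and -1.73 ± 0.36 for DKO (adjusted p = 0.00747). That of Dnmt3a was -1.53 ± 0.20 for Dnmt3a KO (adjusted p = 6.56e-05) and -1.81 ± 0.20 for DKO (adjusted p = 2.79e-06). In pooled oocytes, fewer cells of a type and less RNA per cell cannot be told apart. All 14 genes of an oocyte marker list passed the filter, with a summed level of 26090 to 83740 CPM. Of 13 granulosa or cumulus markers 4 passed, and their list summed to 58.3 to 113 CPM in WT and 71.4 to 347 in LCD KO. Ptx3 was at 0 in every library. The 347 CPM belonged to LCD KO 2, and 292 CPM of it came from Inha alone. Cyp19a1 stood at 20.1 to 35.7 CPM and Nr5a2 at 13.6 to 32.2 over all libraries. Hsd3b1 reached 13.4 CPM, and each remaining marker of the list, Fshr, Foxl2 and Amh among them, at most 5.33. The 10 theca or stroma markers summed to at most 7.39 CPM and the 8 blood or immune markers to at most 3.02. The part of other cells in the differences described here was not tested. Batch 1 had TMM factors of 0.733 to 0.759, and the other libraries 0.927 to 1.20.

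Before the groups were compared, the levels of the 10 genes were put in order in WT, per kilobase of exon so that genes of different length can be compared. Exon lengths came from the GENCODE M21 annotation of GRCm38, which places Xbp1 at chr11:5520659-5525893, Ddit3 at chr10:127290774-127296288 and Atf4 at chr15:80255184-80257541, all on the plus strand. The authors' build was mm9, and counts are per whole gene. The foldase gene Pdia3 was highest at 67.7 ± 17.5 CPM per kb (SD, n = 6), then Calr at 53.8 ± 11.1, Atf4 at 45.9 ± 20.3, Ddit3 at 40.8 ± 16.2, Ern1 at 38.5 ± 24.9 and Ppp1r15a at 28.8 ± 9.27. The ranges of these 6 genes over WT libraries overlapped from each to the next. Atf6 followed at 5.58 ± 1.32 CPM per kb, below all 6 in every WT library. Eif2ak3 at 0.963 ± 0.306 and Xbp1 at 0.874 ± 0.184 came next, with overlapping ranges, and Herpud1 was last at 0.249 ± 0.311. In every WT library the level per kilobase of Ern1, the sensor, exceeded that of its substrate Xbp1.

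**Figure D1:**
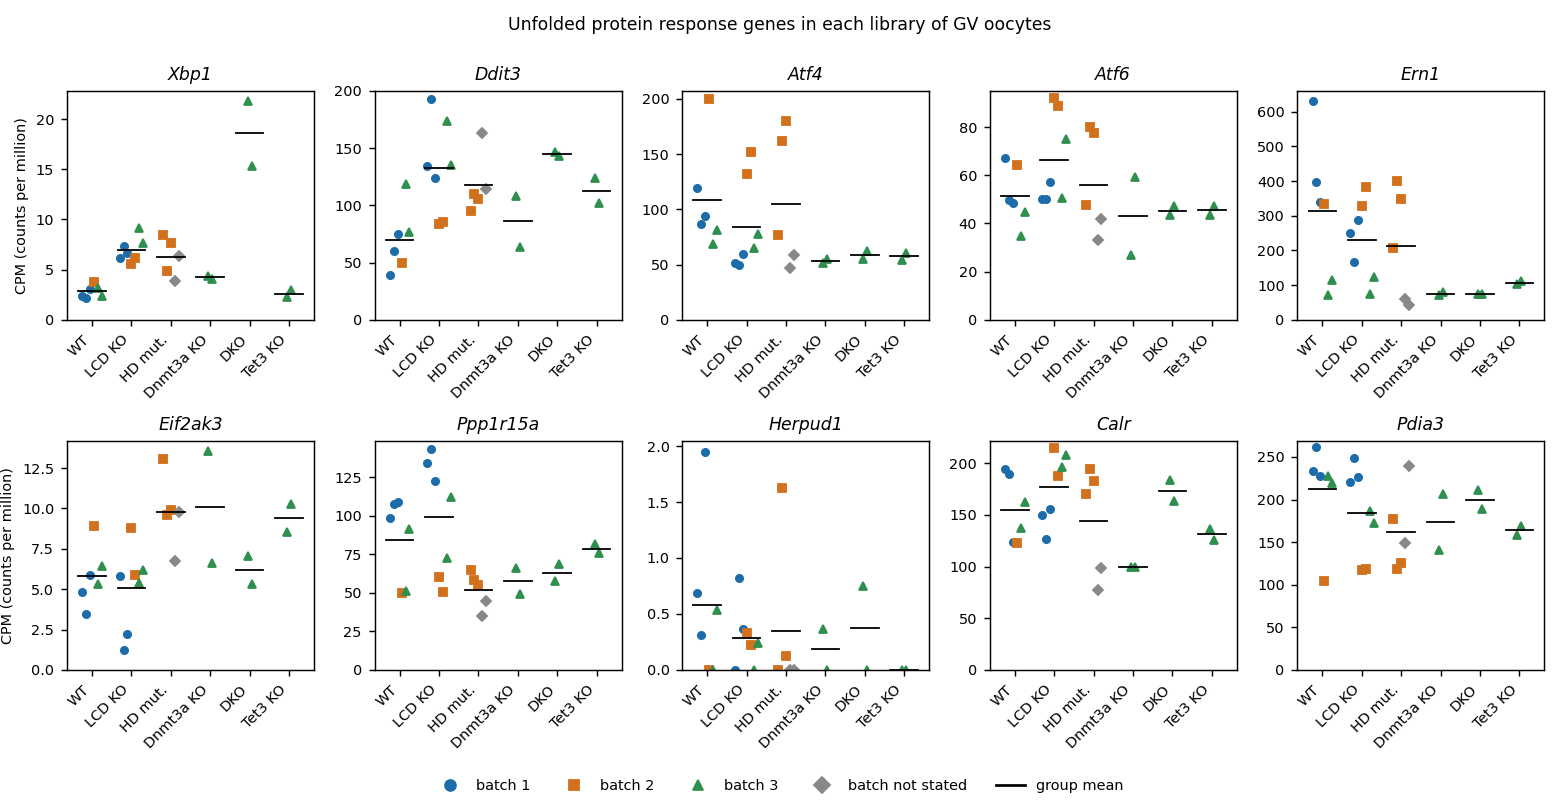
TMM-normalised CPM (linear axis from 0) of the 10 genes in each of the 24 distinct libraries, by group, with colour and symbol for the batch and a bar for the group mean. Every LCD KO and DKO library lies above every WT library for Xbp1, and the level of Ern1 in WT and LCD KO is lowest in batch 3.

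Among the sensors, no group passed the test against WT. Ern1 encodes IRE1, a kinase and RNase. Its CPM was 72.2 at the lowest, 337 at the median and 631 at the highest of the WT libraries, and 74.0, 249.0 and 383 in LCD KO. Levels differed more between batches than between these genotypes. The WT means were 456 ± 154 (SD, n = 3) in batch 1, 334 (n = 1) in batch 2 and 92.9 ± 29.3 (n = 2) in batch 3, and LCD KO means were 234 ± 62.2 (n = 3), 356 ± 38.9 (n = 2) and 98.4 ± 34.4 (n = 2). In the 3 libraries of each genotype in batch 1, LCD KO lay below WT without overlap, and in batches 2 and 3 the values overlapped. The Ern1 log2 fold change of LCD KO against WT was -0.42 ± 0.21 (SE, adjusted p = 0.183, edgeR quasi-likelihood test with Benjamini-Hochberg adjustment over all genes), with -0.97 ± 0.29 in batch 1, 0.08 ± 0.42 in batch 2 and 0.09 ± 0.36 in batch 3. The Ern1 difference passed the threshold in batch 1 alone (-0.93, adjusted p = 0.0354), with the replicate number as a block (-0.71, adjusted p = 0.0285) and without the low-count filter (-0.42, adjusted p = 0.0230). The block joins libraries of the same number over all groups, also where their batches differ. In HD mutant libraries 1 to 5 Ern1 stood at 207, 400, 350, 61.1 and 43.0 CPM, the last 2 being the libraries with no stated batch. Against WT, HD mutant had an Ern1 log2 fold change of -0.43 ± 0.34 (adjusted p = 0.464). Those of Dnmt3a KO, DKO and labelled Tet3 KO were -0.57 ± 0.36, -0.58 ± 0.36 and -0.07 ± 0.35 (adjusted p = 0.529, 0.428 and 0.999).

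Eif2ak3 encodes PERK and had few reads, with 11 to 50 counts in WT. Its WT levels were 3.45 CPM at the lowest, 5.59 at the median and 8.95 at the highest, and those of LCD KO 1.23, 5.80 and 8.78. HD mutant libraries 1 to 5 had 13.1, 9.61, 9.90, 6.73 and 9.76 CPM, of which 4 lay above every WT library. The log2 fold change was -0.30 ± 0.27 in LCD KO (adjusted p = 0.471), 0.27 ± 0.37 in HD mutant (adjusted p = 0.697) and 0.59 ± 0.40 in Dnmt3a KO (adjusted p = 0.564). In DKO the Eif2ak3 value was -0.06 ± 0.42 (adjusted p = 0.964) and in labelled Tet3 KO 0.53 ± 0.40 (adjusted p = 0.830). The HD mutant test used the 3 libraries with a stated batch, and the WT library of that batch, WT 4, was the highest of WT. Of the Eif2ak3 exon bases, 485 (8.05%) are shared with the antisense gene Gm43292, and whether reads were counted by strand is not given in the sources used here. Atf6, the Golgi-cleaved sensor, had 34.8, 49.0 and 67.3 CPM at the lowest, median and highest WT library and 49.98, 57.4 and 91.9 in LCD KO. Its log2 fold change in LCD KO was 0.29 ± 0.17 (adjusted p = 0.269), and the ranges overlapped over all batches. Within batches 1, 2 and 3 the Atf6 value was -0.08 ± 0.18, 0.48 ± 0.26 and 0.67 ± 0.22. The difference between batches did not pass the test (adjusted p = 0.242). In HD mutant, Dnmt3a KO, DKO and labelled Tet3 KO the Atf6 log2 fold change lay between -0.07 and -0.02.

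Xbp1 rose in LCD KO, HD mutant and DKO against WT, and its level was highest in DKO. Both Dnmt3a KO libraries also lay above all 6 WT libraries, but that difference did not pass the test. Xbp1 reads were few, at 7 to 21 counts in WT and 17 to 55 in LCD KO. The Xbp1 mRNA carries the stretch that IRE1 removes, and it is shown because the counts do not separate the cut from the uncut mRNA. It is taken from the GENCODE M21 transcript Xbp1-201 with some bases on each side, and the capitals mark the 26 bases between the 2 cleavage sites (transcript positions 815 to 840).

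Xbp1-201 around the excised stretch: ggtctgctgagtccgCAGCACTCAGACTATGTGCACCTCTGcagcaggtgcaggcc

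Both ends of that stretch were placed by the letters CNGCAGC, with cleavage after the third base, and this motif had 3 matches in the transcript.

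In WT, Xbp1 stood at 2.20 CPM in the lowest, 2.77 in the median and 3.76 in the highest library, and in LCD KO at 5.55, 6.62 and 9.14. All 7 LCD KO libraries lay above all 6 WT libraries, also within each batch. The means were 2.84 ± 0.60 CPM (SD, n = 6) and 6.95 ± 1.20 (n = 7), and the log2 fold change was 1.24 ± 0.24 (adjusted p = 0.000661). It was 1.38 ± 0.36 within batch 1, 0.63 ± 0.42 within batch 2 and 1.597 ± 0.40 within batch 3, and these did not pass a test of their difference (adjusted p = 0.509). Without batch 1 the Xbp1 value was 1.15 with an adjusted p of 0.0624.

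HD mutant libraries 1 to 5 had 8.49, 4.88, 7.67, 3.85 and 6.31 CPM of Xbp1, all above the WT libraries, although library 4 exceeded the highest WT library by little. Over the 3 libraries with a stated batch, Xbp1 rose with a log2 fold change of 1.33 ± 0.33 (adjusted p = 0.0148). That call was lost without HD mutant 1 (1.18, adjusted p = 0.0659) and when batch 2 was fitted alone. The Xbp1 call was also lost when the fit held these 2 groups alone and with the replicate number as a block. That block joins HD mutant 1 to 3 with WT 1 to 3, which lie in another batch. Against LCD KO the HD mutant difference was 0.08 ± 0.30 (adjusted p = 0.940). The DKO libraries had 21.9 and 15.3 CPM of Xbp1, above those of all other groups, against 4.40 and 4.07 in Dnmt3a KO. Xbp1 rose in DKO against WT by a log2 fold change of 2.53 ± 0.34 (adjusted p = 3.75e-05) and against Dnmt3a KO by 2.14 ± 0.38 (adjusted p = 0.00251). The latter was lost without Dnmt3a KO 2 (adjusted p = 0.0563). DKO against LCD KO gave 1.29 ± 0.32 (adjusted p = 0.0840), Dnmt3a KO against WT 0.39 ± 0.39 (adjusted p = 0.722), and the interaction of the 2 alleles 0.90 ± 0.45 (adjusted p = 0.744). With 2 libraries each of DKO and Dnmt3a KO, the Xbp1 level of DKO was thus not separated from the sum of the separate effects on the log2 scale. Among the groups of this interaction WT alone lacked Cre, so an effect of Cre cannot be told apart from the interaction. In the libraries labelled Tet3 KO, Xbp1 stood at 2.31 and 2.93 CPM, within the WT range, and LCD KO exceeded them by 1.54 ± 0.39 (adjusted p = 0.0141). Without one of the libraries labelled Tet3 KO, this Xbp1 difference had an adjusted p of 0.172 or 0.0904, and without LCD KO 6 one of 0.0569.

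Ddit3 encodes CHOP, the factor that promotes cell death when stress persists. Its WT levels were 39.4 CPM at the lowest, 67.5 at the median and 118 at the highest, and those of LCD KO 83.9, 134 and 193. The ranges overlapped over all batches but not within any of the 3 batches, where each LCD KO library exceeded each WT library. The means were 69.9 ± 27.7 CPM (SD, n = 6) and 133 ± 40.8 (n = 7), with a log2 fold change of 1.01 ± 0.17 (adjusted p = 0.000139). Within batches 1, 2 and 3 it was 1.37 ± 0.23, 0.75 ± 0.34 and 0.68 ± 0.27. Without batch 1 the Ddit3 value was 0.70 with an adjusted p of 0.0534.

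In HD mutant libraries 1 to 5 Ddit3 stood at 95.3, 110, 106, 163 and 114 CPM. The first 3 exceeded the 49.7 CPM of WT 4, the WT library of their batch, and Ddit3 rose by a log2 fold change of 1.22 ± 0.26 (adjusted p = 0.00453). That rise was lost when batch 2 was fitted alone, when the fit held these 2 groups alone and without a batch term. The call was also lost with the replicate number as a block, and in 5 of 18 alternatives in all. In DKO, Ddit3 stood at 146 and 143 CPM, above every WT library, but the log2 fold change of 0.74 ± 0.26 did not pass (adjusted p = 0.114). It passed without WT 5, the highest WT library (0.98, adjusted p = 0.0353). Dnmt3a KO had 108 and 64.0 CPM of Ddit3 (-0.02 ± 0.27, adjusted p = 0.987) and the libraries labelled Tet3 KO had 124 and 102 (0.38 ± 0.26, adjusted p = 0.793). Of the Ddit3 exon bases, 68 (3.97%) are shared with the antisense gene Mars, which encodes methionyl-tRNA synthetase. The log2 fold change of Mars in LCD KO was -0.03 ± 0.16 (adjusted p = 0.917).

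Atf4 encodes the factor that acts upstream of Ddit3 in the PERK branch, and it moved the other way. WT libraries had 69.0 CPM at the lowest, 90.1 at the median and 200 at the highest, and LCD KO libraries 49.98, 64.6 and 152. LCD KO lay below WT without overlap in batches 1 and 2 and overlapped it in batch 3. Atf4 fell in LCD KO, with a log2 fold change of -0.55 ± 0.16 (adjusted p = 0.0207), and the size was -0.90 ± 0.16, -0.51 ± 0.22 and -0.07 ± 0.19 in batches 1, 2 and 3. The difference between batches did not pass (adjusted p = 0.168). The Atf4 call was lost without batch 1 (-0.26, adjusted p = 0.610), without WT 1 (adjusted p = 0.0571), without LCD KO 1 (0.0558) and without LCD KO 2 (0.0540). In HD mutant libraries 1 to 5 Atf4 stood at 76.9, 162, 180, 46.6 and 59.1 CPM, and its log2 fold change was -0.55 ± 0.25 (adjusted p = 0.174). All 6 libraries of Dnmt3a KO (51.4 and 55.0 CPM), DKO (55.0 and 62.0) and labelled Tet3 KO (54.4 and 60.3) lay below the lowest WT library. Their log2 fold changes of -0.74 ± 0.28, -0.61 ± 0.27 and -0.64 ± 0.27 did not pass the adjusted test (adjusted p = 0.232, 0.238 and 0.416). These comparisons share the WT libraries.

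Ppp1r15a encodes GADD34, the phosphatase subunit that reverses eIF2alpha phosphorylation and is a CHOP and ATF4 target. It stood at 49.7, 95.0 and 109 CPM at the lowest, median and highest WT library and at 50.8, 112 and 143 in LCD KO. The ranges overlapped, and the log2 fold change was 0.31 ± 0.13 (adjusted p = 0.104). It passed without WT 6 (0.41, adjusted p = 0.0459) and in batch 1 alone (0.37, adjusted p = 0.0428). Values in the other groups lay between -0.35 (Dnmt3a KO) and 0.36 (HD mutant). Herpud1, an ER membrane protein that serves degradation of misfolded proteins, was near 0 in every library. Its counts were 0 to 5 in WT, 0 to 3 in LCD KO and 0 to 11 in HD mutant, and a count of 0 allows up to 3 counts in a library by counting error alone. A difference between groups was not detectable at this depth.

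Calr encodes calreticulin, the lectin chaperone of the ER lumen. WT libraries had 123, 150 and 195 CPM at the lowest, median and highest, and LCD KO libraries 127, 188 and 215. The log2 fold change was 0.18 ± 0.14 (adjusted p = 0.407). It differed in sign between batches, at -0.24 ± 0.16, 0.70 ± 0.24 and 0.44 ± 0.19 in batches 1, 2 and 3, without passing the test of that difference (adjusted p = 0.131). Dnmt3a KO had the lowest Calr levels among the libraries with a stated batch, at 99.1 and 99.3 CPM, below all WT libraries, while DKO had 184 and 163. Neither Dnmt3a KO against WT (-0.73 ± 0.23, adjusted p = 0.145) nor DKO against Dnmt3a KO (0.81 ± 0.24, adjusted p = 0.0843) passed. The Calr values of HD mutant, DKO and labelled Tet3 KO against WT were 0.19 ± 0.22, 0.08 ± 0.22 and -0.33 ± 0.22 (adjusted p = 0.644, 0.898 and 0.794). Pdia3 encodes ERp57, the disulfide isomerase that works with calreticulin. Its WT levels were 104, 228 and 261 CPM at the lowest, median and highest and its LCD KO levels 117, 187 and 249. Its log2 fold change was -0.09 ± 0.12 in LCD KO (adjusted p = 0.643), and in the other groups it lay between -0.34 and 0.25 against WT. The 104 CPM belonged to WT 4, and the LCD KO libraries of the same batch had 117 and 119.

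Counted over the 9 tested members, 3 passed in LCD KO against WT, of which 2 were higher (Xbp1, Ddit3) and 1 lower (Atf4). Among all 11794 tested genes 18.3% passed in this comparison, with 8.89% higher and 9.44% lower. The members' median log2 fold change was 0.18, against -0.02 over all genes. In HD mutant against WT 2 members passed, both higher, where 7.83% of all genes passed and 4.08% were higher. In DKO against WT 1 member passed (Xbp1, higher) with 3.79% of all genes called and 2.27% higher, and in DKO against Dnmt3a KO 1 (Xbp1, higher) with 1.99% called and 1.07% higher. In LCD KO against the libraries labelled Tet3 KO 1 member passed (Xbp1, higher), with 7.59% of all genes called and 4.02% higher.

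No member passed in the other 5 comparisons, by edgeR or by DESeq2, and both tools had the same number of members at an unadjusted p under 0.05. These were HD mutant against LCD KO (2.08% of all genes called, 0 members at an unadjusted p under 0.05), Dnmt3a KO against WT (0.755%, 2 members), DKO against LCD KO (0.314%, 2 members), labelled Tet3 KO against WT (1.37%, 1 member) and the interaction of the Tet3 domain with Dnmt3a (0.0678%, 1 member). Members other than Xbp1 had log2 fold changes from -0.34 (Atf6) to 0.57 (Eif2ak3) in HD mutant against LCD KO, from -0.53 (Ppp1r15a) to 0.24 (Eif2ak3) in DKO against LCD KO, and from -0.65 (Eif2ak3) to 0.81 (Calr) in DKO against Dnmt3a KO. In LCD KO against labelled Tet3 KO they ran from -0.83 (Eif2ak3) to 0.63 (Ddit3), and for the interaction from -0.35 (Eif2ak3) to 0.68 (Atf4). Scaling by library size alone raised the share of higher genes among all calls in LCD KO against WT from 48.5% to 65.1%, in HD mutant from 52.1% to 67.4%, in DKO from 60% to 70.2% and in DKO against Dnmt3a KO from 53.6% to 67.1%. The direction of the 3 members called in LCD KO against WT was the same under that scaling, and Atf4 then had an adjusted p of 0.0510. In simulated data, 2-fold changes were recovered in 26% of cases for DKO (2 libraries) against WT (6 libraries). For LCD KO (7 libraries) against WT the share was 70.7%. The simulations changed 200 and 199 of the tested genes, where the real fits called 447 and 2162. These shares therefore need not hold for the real fits.

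**Figure D2:**
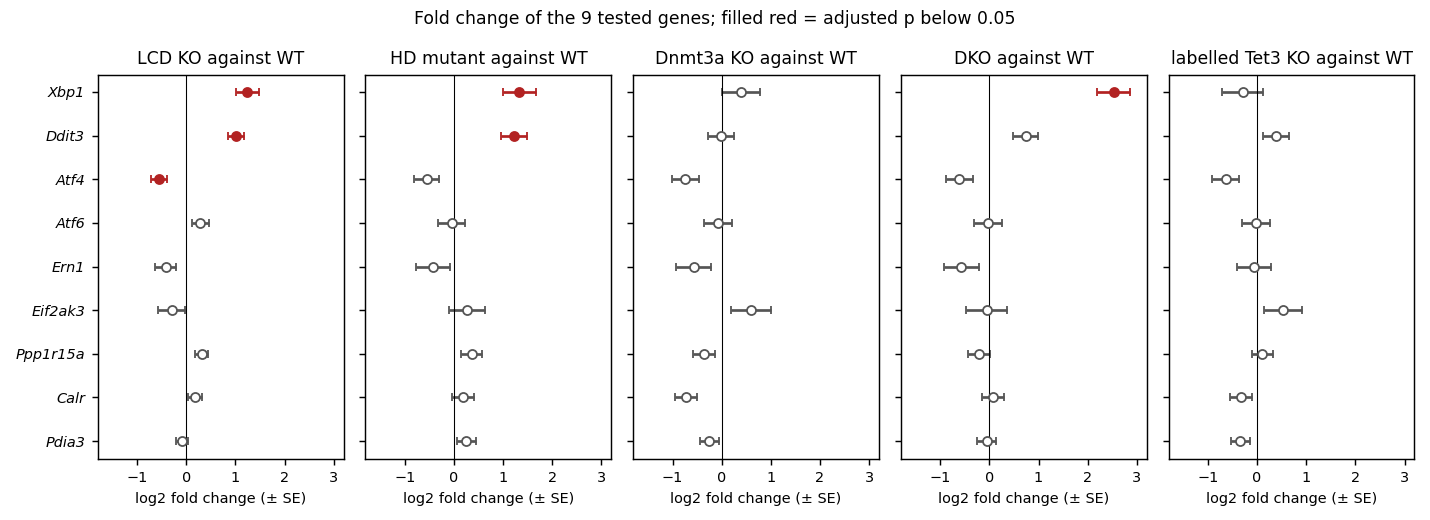
Log2 fold change ± SE of the 9 tested genes in each group against WT from the edgeR fit with a batch term. Filled red points passed an adjusted p of 0.05: Xbp1, Ddit3 and Atf4 in LCD KO, Xbp1 and Ddit3 in HD mutant, and Xbp1 in DKO.

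The number of members called in LCD KO against WT moved with the batches fitted, as did the calls over all genes. By edgeR, batch 1 alone called 5 members, where it called 30.3% of all genes. Batch 2 alone called 0 (2 at an unadjusted p under 0.05) and 0.0946% of all genes, batch 3 alone 0 (4 unadjusted) and 0.789%, and batches 2 and 3 together 0 (4 unadjusted) and 3.07%. The fold changes moved less for Xbp1, which had 1.15 without batch 1 and 1.24 with it, than for Ddit3 (0.70 and 1.01) and Atf4 (-0.26 and -0.55). A test of whether the genotype effect differed between batches, over the 13 WT and LCD KO libraries with 7 residual degrees of freedom, called 0 of 9 members where 0.836% of all genes passed (84 of 10045), and 3 members had an unadjusted p under 0.05 (Atf4, Atf6, Calr). The percentages of all genes given here are at the adjusted threshold. The share of all genes at an unadjusted p under 0.05 was not computed. Xbp1 and Ddit3 kept the sign of their fold change in all 26 alternative fits.

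**Figure D3:**
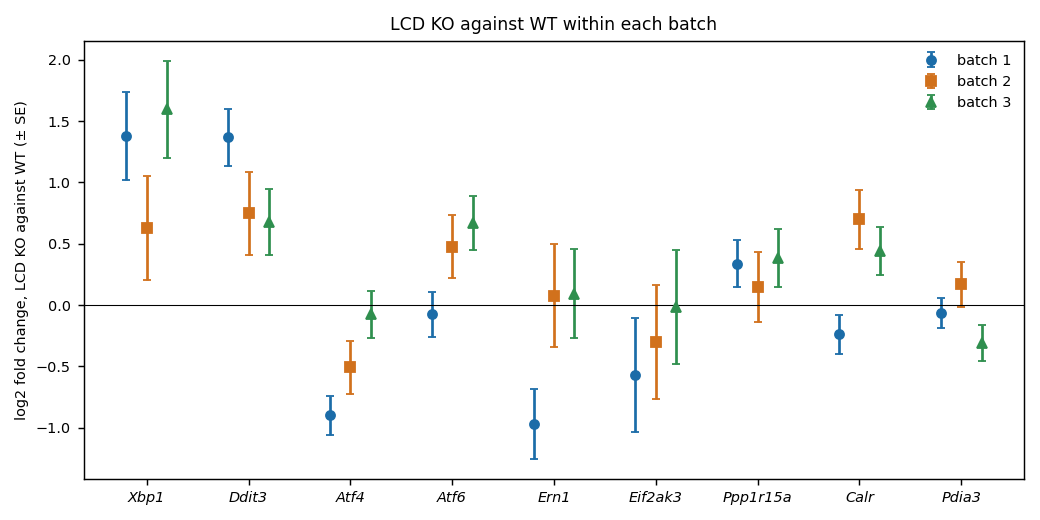
Log2 fold change ± SE of LCD KO against WT within each of the 3 batches, for the 9 tested genes. Xbp1 and Ddit3 lie above 0 in every batch, Atf4 lies at -0.90 in batch 1 and -0.07 in batch 3, and Calr, Atf6, Ern1 and Pdia3 change sign.

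The other genes of the pathway were taken as 5 lists with 142 genes, of which 128 were tested. In LCD KO against WT 12 rose and 10 fell (22 in all, 17.2% of the tested list genes), which is near the 18.3% of all genes, and the median log2 fold change was -0.02 in both. Of these 22, 3 were called without a batch term, 2 over 24 libraries without one, and 0 in batch 2 or batch 3 alone. Of the 26 tested genes of the IRE1-XBP1 list, 3 rose and 3 fell. Those that rose were Dnajb9 (0.83 ± 0.20), a co-chaperone of BiP, and Derl2 (0.69 ± 0.15) and Sel1l (0.63 ± 0.15), which draw misfolded proteins out of the ER. Those that fell were Sec24d (-0.72 ± 0.23), a coat protein of vesicles leaving the ER, the disulfide isomerase Pdia6 (-0.55 ± 0.15) and the tRNA ligase Rtcb (-0.49 ± 0.14), which joins the cut Xbp1 mRNA.

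Of 15 tested genes of the ATF6 list, 3 rose and 2 fell. Hspa5 encodes BiP, the main ER chaperone, and its level depended on the batch. WT libraries of batch 1 had 745, 834 and 690 CPM of Hspa5 and LCD KO libraries 1136, 1086 and 995. In batch 2 the values were 220 in WT and 330 and 290 in LCD KO, and in batch 3 they were 374 and 434 in WT and 490 and 504 in LCD KO. Every LCD KO library exceeded every WT library of its batch, and Hspa5 rose by a log2 fold change of 0.44 ± 0.13 (adjusted p = 0.0218). That call was lost without WT 3 (adjusted p = 0.0603), WT 4 (0.0536) or LCD KO 1 (0.0552). Hsp90b1, which encodes GRP94 and is known as a target of the same response, fell by 0.49 ± 0.11 on the log2 scale (adjusted p = 0.00349), at 385, 394 and 327 CPM in WT against 263, 246 and 252 in LCD KO within batch 1. The pair therefore moved in opposite directions. Creb3 (0.60 ± 0.19) and Creb3l4 (0.58 ± 0.17), membrane-bound factors related to ATF6, rose, and Mbtps1 (-0.74 ± 0.18), the protease that cleaves ATF6, fell.

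Of 31 tested genes of the PERK-ATF4-CHOP list, 1 rose and 2 fell. The amino acid carrier Slc3a2 rose (0.41 ± 0.11), and the cell death gene Bcl2l11 (-0.94 ± 0.29) and the phosphatase catalytic subunit Ppp1cc (-0.88 ± 0.24) fell. Chac1, a CHOP and ATF4 target, had a log2 fold change of 0.67 ± 0.36 (adjusted p = 0.204), Trib3 0.08 ± 0.55 (adjusted p = 0.940) and Asns -0.06 ± 0.33 (adjusted p = 0.920). Atf3 stood at 2.76 CPM or less in every library and did not pass the filter on low counts. Of 25 tested folding genes 2 rose, Prkcsh (0.50 ± 0.16), a subunit of glucosidase II, and Erp44 (0.40 ± 0.10), a thiol chaperone. The lectin chaperone gene Canx had -0.06 ± 0.15 (adjusted p = 0.816).

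Of 31 tested genes of ER-associated degradation, 3 rose and 3 fell. Selenos, a selenoprotein of the retrotranslocation complex, rose by 2.28 ± 0.37 (adjusted p = 0.000111), Rnf5 by 0.65 ± 0.12 and Selenok by 0.54 ± 0.15. Those that fell included Herpud2 (-0.55 ± 0.18) and Nploc4 (-0.48 ± 0.16). WT libraries 1 to 6 had 1.38, 1.57, 0.780, 1.43, 7.22 and 3.21 CPM of Selenos, with 0.780 CPM from 2 counts. LCD KO libraries 1 to 7 had 14.9, 6.55, 9.93, 8.997, 6.31, 24.6 and 8.32 CPM. Each LCD KO library exceeded each WT library of its batch. Selenos also rose in HD mutant by 2.16 ± 0.53 (adjusted p = 0.0135), in DKO with 25.9 and 17.0 CPM by 2.44 ± 0.49 (adjusted p = 0.00391), and in LCD KO against the libraries labelled Tet3 KO (3.43 ± 0.62, adjusted p = 0.000935, with 1.85 and 1.71 CPM in the latter). It was the one list gene still called in LCD KO against WT without batch 1 (1.89, adjusted p = 0.0307). Of the 22 list genes called in LCD KO against WT, 1 passed without batch 1, and 12 passed whichever single WT or LCD KO library was left out. The 10 whose call was lost without at least 1 library included Bcl2l11, Creb3, Creb3l4, Herpud2, Hspa5, Nploc4, Ppp1cc, Prkcsh and Sec24d. The Selenos call in DKO was lost without DKO 1 (2.09, adjusted p = 0.0830), and that in HD mutant without HD mutant 1 (1.802, adjusted p = 0.0697) or WT 4 (2.11, adjusted p = 0.0562).

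**Figure D4:**
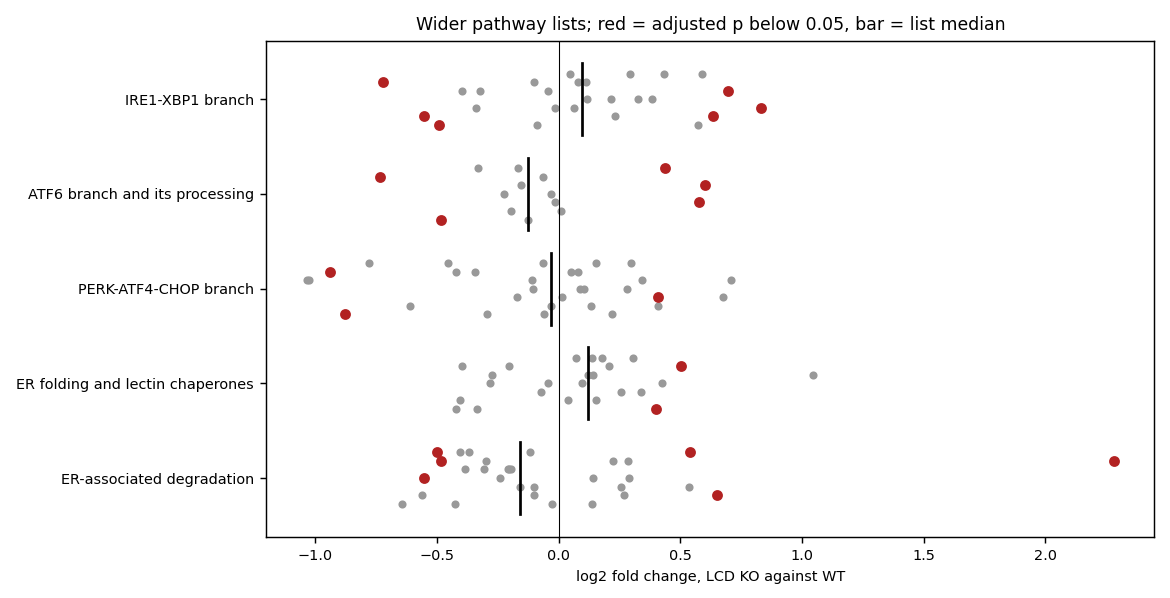
Log2 fold change of LCD KO against WT for each tested gene of the 5 lists, with genes that passed an adjusted p of 0.05 in red and a bar at the list median. The list medians lie between -0.16 and 0.12, and Selenos has the highest value among the called genes, at 2.28.

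In DKO against WT, 1 list gene rose (Selenos) and 2 fell, together 2.34% of the tested list genes against 3.79% of all genes. Those that fell were Sec24d (-1.58 ± 0.43, adjusted p = 0.0339) and Pdia6 (-0.91 ± 0.25, adjusted p = 0.0369). The Sec24d call was lost without DKO 2 or WT 5, and the Pdia6 call without DKO 1, DKO 2 or WT 6. In batch 3 alone, which holds both DKO libraries, 0 of the 3 passed, with Selenos at 2.07 (adjusted p = 0.0534). In HD mutant against WT 8 list genes rose and 2 fell (10 in all, 7.81% of the tested list genes against 7.83% of all genes). Hsp90b1 fell by 0.59 ± 0.18 on the log2 scale (adjusted p = 0.0379). That call was lost without HD mutant 1 (adjusted p = 0.160), HD mutant 2 (0.0613), WT 2 (0.0531) or WT 4 (0.201), and in 10 of 18 alternatives in all. Derl2 rose by 0.91 ± 0.23 (adjusted p = 0.0145), and the latter was lost without HD mutant 1 (0.61, adjusted p = 0.113). Hspa5 had 0.67 ± 0.21 with an adjusted p of 0.05001, just above the threshold. Of the other list genes that passed there, Erlec1, a lectin that guides glycoproteins to degradation, was chosen for naming after its values were seen and rose by 2.15 ± 0.42 (adjusted p = 0.00214). Without HD mutant 1, 2 of the 10 HD mutant calls remained, and without WT 4, the sole WT library of batch 2, 4 remained. A block on replicate number left 2 of these calls, a fit of the 2 groups alone 1, a fit without a batch term 1, that over 24 libraries 3, and batch 2 alone 0.

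Pdia6 in batch 2 stood at 171, 129 and 138 CPM in HD mutant 1 to 3, 57.5 and 54.2 in LCD KO and 53.7 in WT 4. HD mutant 4 and 5, with no stated batch, had 72.6 and 61.4 CPM, well below HD mutant 1 to 3. Over HD mutant 1 to 3 alone, HD mutant exceeded LCD KO by a log2 fold change of 1.56 ± 0.22 (adjusted p = 5.23e-05), and without a batch term the value was 0.52 (adjusted p = 0.538). In batch 3 Pdia6 stood at 89.7 and 120 CPM in WT, against 69.0 and 69.7 in LCD KO, 43.7 and 44.7 in Dnmt3a KO, 58.3 and 51.7 in DKO and 47.3 and 59.8 in the libraries labelled Tet3 KO. All 8 of these libraries lay below both WT libraries. Dnmt3a KO fell by 1.23 ± 0.25 on the log2 scale (adjusted p = 0.0120) and labelled Tet3 KO by 0.95 ± 0.25 (adjusted p = 0.0496). Both calls were lost without WT 6 (adjusted p = 0.0766 and 0.205) and without either library of the group concerned, and the latter also without WT 1, 2 or 3.

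**Figure D5:**
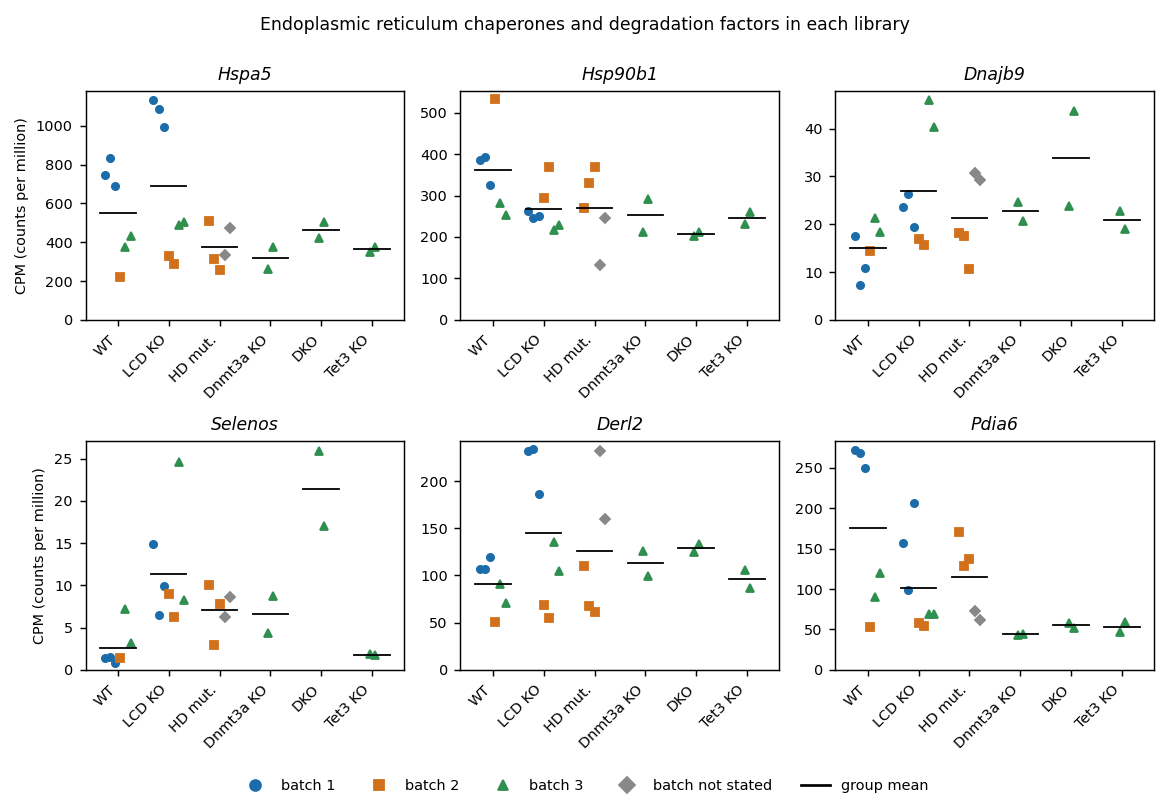
TMM-normalised CPM (linear axis from 0) of Hspa5, Hsp90b1, Dnajb9, Selenos, Derl2 and Pdia6 in each of the 24 distinct libraries, with colour and symbol for the batch and a bar for the group mean. The highest values of Hspa5 and Pdia6 are those of batch 1. The mean of Selenos is higher in LCD KO, HD mutant, Dnmt3a KO and DKO than in WT and not in labelled Tet3 KO. The Selenos difference of Dnmt3a KO from WT did not pass the edgeR test (adjusted p = 0.571).

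Promoters were read for the letters that the factors of the response are known to bind, in the RefSeq table of 300 bases (250 before to 50 after the start site, GRCm38.p6), which held 9 of the 10 members. Atf6 had no entry. Both strands were searched for the ER stress element (ERSE: CCAAT, any 9 bases, CCACG), ERSE-II (ATTGG, any base, CCACG), the core of the unfolded protein response element (TGACGTG), bound by XBP1s, and the core of the CHOP and ATF4 composite element (TGATGNAA). The ERSE lay in Calr, at -162 to -144 on the strand opposite to the gene, and in 0.119% of all 32851 promoters of the table. Herpud1 held ERSE-II at -52 to -42, found in 0.0365% of promoters, and the composite core at -112 to -105 on the opposite strand, found in 3.97%. The core TGACGTG was in none of the 9 members and in 2.01% of promoters. The promoters of the 2 members that rose in LCD KO and of the 2 members that held a match follow, 5′ to 3′ along the gene, with matches in capitals.

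Xbp1, GRCm38.p6 chr11:5520391-5520690, plus strand: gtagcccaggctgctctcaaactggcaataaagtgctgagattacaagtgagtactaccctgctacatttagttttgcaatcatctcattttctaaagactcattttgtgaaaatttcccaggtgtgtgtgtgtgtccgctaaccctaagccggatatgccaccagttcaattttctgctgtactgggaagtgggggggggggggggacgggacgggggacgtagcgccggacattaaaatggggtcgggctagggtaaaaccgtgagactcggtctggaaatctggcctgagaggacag
Ddit3, GRCm38.p6 chr10:127290543-127290842, plus strand: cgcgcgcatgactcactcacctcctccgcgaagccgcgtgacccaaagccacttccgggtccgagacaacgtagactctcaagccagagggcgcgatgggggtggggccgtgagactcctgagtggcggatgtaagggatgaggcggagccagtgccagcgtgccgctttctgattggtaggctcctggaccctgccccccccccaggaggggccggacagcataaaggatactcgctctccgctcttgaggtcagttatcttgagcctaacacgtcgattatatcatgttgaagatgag
Calr, GRCm38.p6 chr8:84846882-84847181, minus strand: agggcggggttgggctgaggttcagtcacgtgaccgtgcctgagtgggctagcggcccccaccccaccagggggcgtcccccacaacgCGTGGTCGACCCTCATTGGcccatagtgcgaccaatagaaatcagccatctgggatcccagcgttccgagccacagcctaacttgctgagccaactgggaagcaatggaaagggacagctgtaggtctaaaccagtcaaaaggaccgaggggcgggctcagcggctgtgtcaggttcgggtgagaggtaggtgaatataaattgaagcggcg
Herpud1, GRCm38.p6 chr8:94386179-94386478, plus strand: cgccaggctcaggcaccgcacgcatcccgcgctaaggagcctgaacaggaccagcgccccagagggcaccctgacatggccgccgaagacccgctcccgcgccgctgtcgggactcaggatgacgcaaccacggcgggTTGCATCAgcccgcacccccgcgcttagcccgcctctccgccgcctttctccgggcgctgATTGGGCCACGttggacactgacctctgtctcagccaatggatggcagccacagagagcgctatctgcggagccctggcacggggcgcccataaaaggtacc

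Neither Xbp1 nor Ddit3 held a match, which says that these exact letters are not in the window shown. Sites with a differing base were not searched. In Ddit3 the stretch cgtgccgctttctgattgg begins with cgtgc, where the ERSE on the opposite strand begins with cgtgg, so it was not marked. Where a member had further entries in the table, only the last was read, and its other start sites were not searched. Of the 2 genes with a match, Calr did not pass in LCD KO (0.18 ± 0.14) and Herpud1 was near 0 throughout.

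Across the 22 libraries with a stated batch, levels centred by batch were compared between genes as a description. The libraries share genotype groups, so genes that differ between groups correlate. Xbp1 and Ddit3 had a Pearson r of 0.657, Atf4 and Ern1 0.790, and Ddit3 had -0.575 with Atf4 and -0.635 with Ern1. Atf6 had 0.528 with Ern1 and 0.508 with Calr. The genes most like Xbp1 outside the members were Apoe (0.898), Gm1110 (0.889) and 4930433N12Rik (0.878), and those most like Ddit3 were Sh3bgrl3 (0.939), Npc2 (0.929) and Ftl1 (0.928). Those most like Atf4 were Sf3a1 (0.899), Abr (0.892) and Eef2k (0.892), and those most like Calr were Mfap1b (0.851), Rnf34 (0.843) and Gpr155 (0.804). The 3 genes most like Xbp1 and the 3 most like Ddit3 were all higher in LCD KO against WT, with log2 fold changes of 0.57 (Apoe) to 2.56 (Gm1110) and adjusted p of 0.00545 or less, while none of the 6 most like Atf4 or Calr passed.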

How the data were processed

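Polyadenylated RNA of 10-oocyte pools was sequenced. The authors deposited one table of whole-number read counts per gene. Per the submitters' processing notes, Trim Galore 0.5.0, HISAT2 2.1.0, featureCounts 1.6.4 and mm9 were used. The gene annotation, strand setting and treatment of multiple matches are not given in the sources used here. The 92 ERCC spike-in features (1 count in all) were left out. Identical columns were counted once.

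Counts were filtered with filterByExpr (11794 genes kept), scaled by TMM and tested with edgeR 4.0.16 (R 4.3.3, quasi-likelihood, robust) with group and batch terms over 22 libraries, with 14 residual degrees of freedom and Benjamini-Hochberg adjustment (threshold 0.05). HD mutant 4 and 5 have no stated batch, so they were left out of tests and shown as levels. DESeq2 1.42.0, other scalings, filters and library subsets were alternatives. The procedure was tested on simulated data. Depth is the total count, and with few reads (Xbp1, Eif2ak3, Herpud1) precision is limited. All 10 members are described, in some comparisons by range. Of the lists, genes called in LCD KO or DKO against WT (at most 6 a list) and 8 readout genes were named. Named too were the 3 genes most like each of 4 members. The members and lists were chosen with earlier results of these data known. Of the list genes named by this rule, 1 is not reported here.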

Additional observations from a re-analysis of the deposited data

Results flagged for a closer look

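Of 30 groups of values tested for 1 library far from the others, 4 were marked. Chance marks about 1 in 20 where all values of a group share a normal distribution. These groups pooled batches whose levels can differ, so that rate need not hold here. Ddit3 in HD mutant 4 stood at 163 CPM, with the next of 5 libraries at 114. Herpud1 stood at 1.95 CPM in WT 3 (next 0.690, of 6) and at 1.63 CPM in HD mutant 2 (next 0.124, of 5), from 5 and 11 counts. Pdia3 in WT 4 stood at 104 CPM, the lowest of 6, with the next at 220. WT 4 was the sole WT library of batch 2, where Pdia3 was 117 and 119 CPM in LCD KO.

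HD mutant 4 and 5, which have no stated batch and entered no test, exceeded all WT libraries for Xbp1 (3.85 and 6.31 CPM), HD mutant 4 for Ddit3 (163 CPM) and HD mutant 5 for Eif2ak3 (9.76 CPM). Without a batch these levels were not tested.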

How the results depend on the processing

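Over 90 results for single members, 1701 alternative values were computed. Of these, 1662 stayed on the same side of the threshold, 1544 of them with the same sign and 118 with another sign and no call, while 30 lost the call, 9 gained it and 0 reversed a call. The cause of the changes below was not tested. The number of members called moved as follows. In LCD KO against WT (3) it was 5 in batch 1 alone, 0 in batch 2 alone, 0 in batch 3 alone and 0 without batch 1. In HD mutant against WT (2) it was 1 without a batch term (3.09% of all genes called), 1 with all 24 libraries and no batch term (3.42%) and 0 with the 2 groups alone (1.02%). In DKO against WT (1) it was 2 without the low-count filter (3.5% of all genes called), and in DKO against LCD KO (0) 1 without a batch term (0.11%). In DKO against Dnmt3a KO (1) it was 0 over 24 libraries without a batch term (0.0338%), and in LCD KO against labelled Tet3 KO (1) 2 with these groups alone (10.3%). Leaving out 1 library at a time gave 2 to 4 members in LCD KO against WT, 1 to 2 in HD mutant against WT, 1 to 2 in DKO against WT, 0 to 1 in LCD KO against labelled Tet3 KO, 0 to 1 in DKO against Dnmt3a KO and 0 in the other 5 comparisons. Deviations from group means, with batch left in, correlated at -0.388 to 0.739 between same-numbered WT and LCD KO libraries. On this measure 3 of 12 libraries correlated best with their own number. With batch means also taken out the correlations were -0.32 to -0.017, without a value for number 4. No pairing by equal replicate number was seen in these values. For number 5 the WT and LCD KO libraries lay in different batches. In batch 3 the WT numbers start at 5 and the LCD KO numbers at 6, so a pairing by order there was not tested. In each group of batch 3 the library with the lower number had more Ddit3 and less Atf4 and Atf6 than the other. The order of Xbp1 and of Pdia3 differed between these groups. With the replicate number as a block, 0 members were called in HD mutant against WT (1.87% of all genes called), 0 in LCD KO against labelled Tet3 KO (1.03%) and 4 in LCD KO against WT (16.6%). The block joined libraries of the same number over all groups, also across batches. Of the list genes, without a batch term HD mutant against WT reversed for Pdia6 (-0.26), Derl2 (-0.19), Dnajc3 (-0.87) and Erp44 (-0.0733), and over 24 libraries for Pdia6 (-0.61) and Dnajc3 (-0.56). LCD KO against WT reversed in batch 2 alone for Pdia6 (0.0895) and Creb3l4 (-0.0455) and in batch 3 alone for Herpud2 (0.0229). Over all genes, 2162 were called in LCD KO against WT, but 544 without a batch term, 357 over 24 libraries, 12 in batch 2 alone, 88 in batch 3 alone and 363 without batch 1, and 2851 in batch 1 alone and 2462 by DESeq2. Over the alternatives other than leaving out 1 library, the calls ran from 40 to 1372 in HD mutant against WT (923), 35 to 410 against LCD KO (245), 15 to 311 in Dnmt3a KO (89), 133 to 672 in DKO against WT (447), 4 to 449 against Dnmt3a KO (235), 5 to 122 against LCD KO (37), 32 to 284 in labelled Tet3 KO (162), 122 to 1162 in LCD KO against labelled Tet3 KO (895) and 2 to 70 for the interaction (8). Leaving out 1 library gave 1685 to 2309 in LCD KO against WT, 384 to 1114 in HD mutant against WT, 92 to 277 against LCD KO, 26 to 116 in Dnmt3a KO, 164 to 471 in DKO against WT, 78 to 115 against Dnmt3a KO, 12 to 41 against LCD KO, 55 to 172 in labelled Tet3 KO, 260 to 876 in LCD KO against labelled Tet3 KO and 6 to 14 for the interaction. The low counts of Xbp1, Eif2ak3 and Herpud1 limit what could be seen of them.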
